A study of Mus musculus with 23 samples.

Results

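Open chromatin after a bacterial challenge was compared between microglia of adult mice whose mothers had undergone maternal immune activation (MIA) and microglia of control offspring (CON), both injected with lipopolysaccharide (LPS). The comparison rests on the 5 MIA_LPS and 7 CON_LPS libraries, chosen by their labels, 12 of the 23 ATAC-seq libraries of the series. All 12 were made from striatal tissue of males, 8 to 10 weeks old, that received 4500 endotoxin units of LPS per gram of body weight intraperitoneally 18 hours before the cells were collected. The remaining 6 MIA_SAL and 5 CON_SAL libraries, from offspring of the same prenatal groups injected with saline, serve as background. The meninges were removed, the tissue was digested with papain, and P2ry12+ cells with CD11b and low CD45 were sorted. For the agent that activated the dams' immune system and for the mouse strain, the sources used here give nothing. No label says whether libraries stem from separate animals, and p-values thus measure only how far these libraries spread.

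Microglia are the resident macrophages of the brain. LPS, a bacterial cell wall component, is bound with the help of CD14 by the receptor TLR4, which signals through the adaptors MyD88 and TRIF to NF-kB and interferon regulatory factors and so to cytokine, chemokine and interferon-stimulated genes. MIA is widely used in mice as a model of infection during pregnancy. Whether it leaves microglia of the adult offspring with another response to a later challenge is the question that the 4 groups of the design address. ATAC-seq marks DNA that is accessible to a transposase, and a peak is a stretch where such marks pile up over the local background. It does not measure transcription.

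After correction for the number of sites tested, no single accessible site was called different between challenged microglia of MIA and control offspring. Peaks of the 12 libraries were merged into 55488 intervals wherever they overlapped, of which 18997 (34.2%) held a peak in all 12. Of the intervals tested, 0 of 3678 were called by the presence of peaks and 0 of 18997 by their rank. The latter held for either of the measures that the authors deposited for each peak. By presence an interval could pass only if many separated at once, so the 0 of 3678 does not show that no single site differed. The sites that came closest included the promoter of S100a6, a region near the chemokine gene Ccl3 and a region outside the Socs3 gene, and their values are given below as measurements that did not pass the correction.

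Promoters at which the results turn are shown first, as the 250 bases before the start of transcription in RefSeq (GRCm38.p6, the build of the peak lists). The S100a6 promoter held a peak in every MIA_LPS and no CON_LPS library. Of the 2 promoter windows of Cdkn2a, the 1 shown held a peak in 1 MIA_LPS and 7 CON_LPS libraries. Mydgf and Heatr1 have the promoters with the smallest unadjusted p in the rank comparison for a higher and a lower rank in MIA_LPS, the groups did not overlap at that of Nt5dc3, Tbk1 leads the TLR4 signalling genes, and Nfkbia and Socs3 are LPS feedback genes whose promoters differed by under 1 point in mean rank. Capitals mark matches, on either strand, to the TATA box (TATAAA), the CCAAT box (CCAAT), the GC box (GGGCGG), a PU.1 motif (GAGGAAGT), an AP-1 motif (TGANTCA), the first 9 letters of the interferon-stimulated response element (GAAANNGAA) and the NF-kB motif.
S100a6 promoter (chr3:90612644-90612893, plus strand): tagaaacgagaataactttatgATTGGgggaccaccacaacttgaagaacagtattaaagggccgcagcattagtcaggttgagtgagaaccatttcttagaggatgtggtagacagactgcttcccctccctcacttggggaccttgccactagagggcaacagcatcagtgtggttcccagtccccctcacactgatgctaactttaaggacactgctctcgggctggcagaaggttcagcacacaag
Cdkn2a promoter (chr4:89282193-89282442, minus strand): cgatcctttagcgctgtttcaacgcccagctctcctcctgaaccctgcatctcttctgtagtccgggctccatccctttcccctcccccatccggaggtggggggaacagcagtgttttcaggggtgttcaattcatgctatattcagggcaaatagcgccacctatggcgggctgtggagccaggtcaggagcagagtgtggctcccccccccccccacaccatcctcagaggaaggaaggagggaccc
Mydgf promoter (chr17:56183921-56184170, minus strand): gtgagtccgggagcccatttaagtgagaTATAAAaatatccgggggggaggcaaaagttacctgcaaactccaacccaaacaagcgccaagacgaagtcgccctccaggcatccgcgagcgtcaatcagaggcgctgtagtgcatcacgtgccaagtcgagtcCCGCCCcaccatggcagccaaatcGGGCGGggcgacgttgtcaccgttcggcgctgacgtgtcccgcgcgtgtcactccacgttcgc
Heatr1 promoter (chr13:12395125-12395374, plus strand): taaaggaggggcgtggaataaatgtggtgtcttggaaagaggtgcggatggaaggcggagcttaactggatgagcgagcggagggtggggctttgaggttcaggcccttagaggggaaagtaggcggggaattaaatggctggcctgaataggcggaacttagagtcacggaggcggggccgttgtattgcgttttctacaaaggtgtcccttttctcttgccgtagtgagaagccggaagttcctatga
Nt5dc3 promoter (chr10:86778755-86779004, plus strand): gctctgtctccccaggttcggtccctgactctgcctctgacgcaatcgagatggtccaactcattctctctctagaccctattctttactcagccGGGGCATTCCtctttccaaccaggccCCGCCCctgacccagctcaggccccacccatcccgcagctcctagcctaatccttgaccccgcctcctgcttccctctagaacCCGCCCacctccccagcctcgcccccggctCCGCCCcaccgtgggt
Tbk1 promoter (chr10:121586795-121587044, minus strand): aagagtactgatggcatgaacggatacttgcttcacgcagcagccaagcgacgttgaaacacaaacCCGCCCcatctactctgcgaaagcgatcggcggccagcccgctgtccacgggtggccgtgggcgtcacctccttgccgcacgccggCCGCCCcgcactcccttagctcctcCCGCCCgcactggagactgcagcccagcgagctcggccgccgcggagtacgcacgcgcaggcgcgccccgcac
Nfkbia promoter (chr12:55492648-55492897, minus strand): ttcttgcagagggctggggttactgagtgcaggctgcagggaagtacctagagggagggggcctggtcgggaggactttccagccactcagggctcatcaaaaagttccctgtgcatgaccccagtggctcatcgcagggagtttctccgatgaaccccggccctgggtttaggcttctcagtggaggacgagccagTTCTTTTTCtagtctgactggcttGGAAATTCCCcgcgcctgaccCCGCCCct
Socs3 promoter (chr11:117969367-117969616, minus strand): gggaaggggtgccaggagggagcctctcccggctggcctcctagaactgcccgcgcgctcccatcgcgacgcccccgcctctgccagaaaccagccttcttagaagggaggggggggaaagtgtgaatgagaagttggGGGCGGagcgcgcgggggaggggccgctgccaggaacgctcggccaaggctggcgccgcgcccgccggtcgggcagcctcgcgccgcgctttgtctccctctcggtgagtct
Of these 8 windows, 5 held a GC box, which 32.7% of the 32851 RefSeq promoter windows hold in the same 250 bases. The NF-kB motif stood in the windows of Nfkbia, from position -29 to -20 before the start, and of Nt5dc3, from -155 to -146, and in 7.25% of all windows. The CCAAT box was found at S100a6 only (33.8% of all windows) and the TATA box at Mydgf only (12.4%). None of the 8 held the PU.1 motif (2.44% of all windows) or the AP-1 motif (6.75%). The 9 letters of the interferon-stimulated response element stood at Nfkbia only, from -53 to -45 (7.13% of all windows), and the full element, with 1 more A, stood in 0 of the 8 (2.98% of all windows). Capitals can overlap where motifs do, and a match describes letters, not binding.

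The lists of the 12 libraries were first compared as wholes. MIA_LPS lists held 51328 ± 11958 peaks (SD, n = 5) and CON_LPS lists 42446 ± 4522 (SD, n = 7), a difference of 8882 that a two-sided exact permutation test of the 792 assignments of libraries did not separate (p = 0.111, adjusted over 6 measures 0.222). The median fold enrichment over background of the shortened lists was 7.27 ± 1.77 in MIA_LPS and 5.87 ± 0.576 in CON_LPS libraries (exact permutation p = 0.0682, adjusted 0.212), and their median −log10 p was 24.7 ± 12.1 against 15.8 ± 2.72 (exact permutation p = 0.0707, adjusted 0.212). The library MIA_LPS 3 stood below the other MIA_LPS libraries, with 33939 peaks and a median fold of 5.28. It was sorted from 12500 cells, as was MIA_LPS 2, which had 56120 peaks and a median fold of 7.19. Without MIA_LPS 3 all 3 measures differed, by 13230 peaks, a median fold of 1.90 and a median −log10 p of 12.02. Each had an adjusted exact permutation p of 0.0364. In the other group, CON_LPS 3 and CON_LPS 7 had median folds of 4.94 and 5.18. With both left out as well, the differences were 13436 peaks, 1.57 and 11.0. Each then had an adjusted exact permutation p of 0.0635, above the threshold. Without MIA_LPS 5, which had the most peaks, the differences were 5308 peaks, 0.687 and 3.98. Fewer accessible cells and less signal per cell cannot be told apart in such lists, and the total reads per library are unknown. From every list the 33900 peaks with the highest −log10 p were therefore kept, and peaks are given by their percentile rank in that list, from 0 for the weakest to 100 for the strongest.

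**Figure D1:**
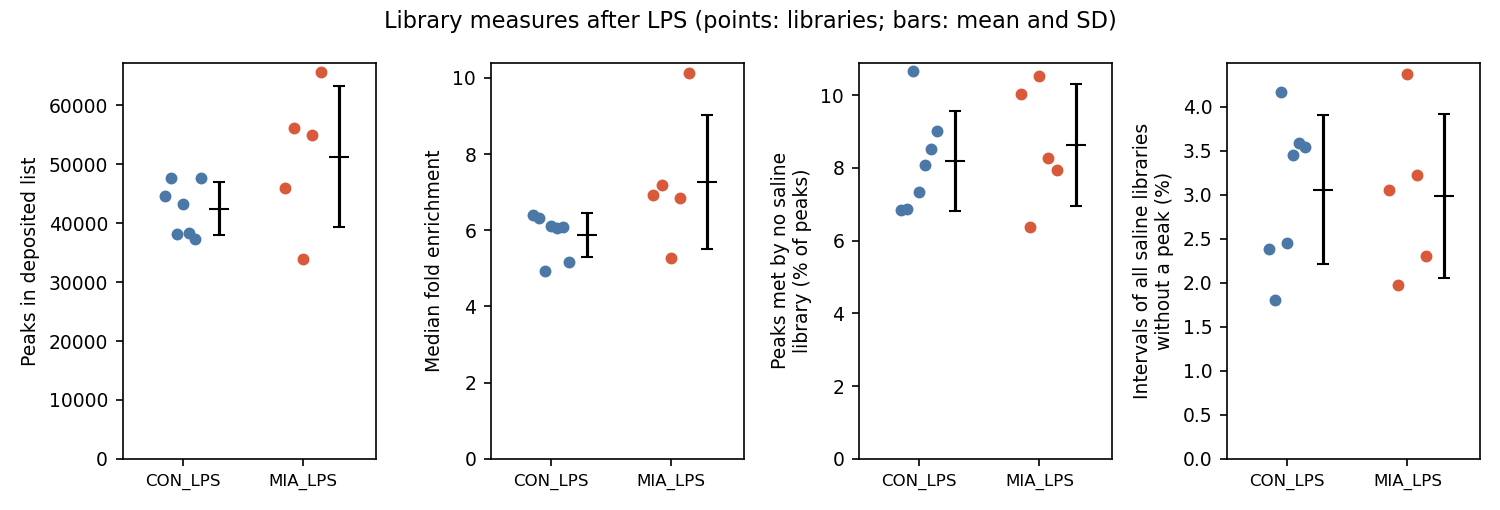
Number of deposited peaks, median fold enrichment, share of peaks met by no saline library (percent) and share of the intervals of all saline libraries without a peak (percent), by library, for 7 CON_LPS and 5 MIA_LPS libraries; bars are mean and SD. The first 2 measures run higher in 4 of the 5 MIA_LPS libraries than in most CON_LPS libraries, while in the last 2 the groups overlap over most of their range.

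The size of the LPS response, read as peaks gained and lost against saline, did not differ between the groups beyond the spread of the libraries. Peaks that met no peak of the 11 saline libraries made up 8.62% ± 1.67 of the intervals of a MIA_LPS library (SD, n = 5) and 8.19% ± 1.37 of those of a CON_LPS library (SD, n = 7, exact permutation p = 0.621). Of the intervals with a peak in every saline library, 2.98% ± 0.932 had none in a MIA_LPS library and 3.06% ± 0.848 in a CON_LPS library (exact permutation p = 0.874). These 2 measures were added after the data were seen. The shortened lists of 2 libraries shared on average 71.5% ± 5.48 of their peaks within MIA_LPS (SD over 10 pairs), 69.5% ± 3.66 within CON_LPS (21 pairs) and 70.3% ± 4.27 between the groups (35 pairs), while LPS and saline libraries shared 62.7% ± 4.47. The mean over pairs within a group minus that between groups was -0.179 percentage points (one-sided exact permutation p = 0.476). The 4 leading principal components of the ranks did not part the groups. The smallest exact permutation p among them, 0.0328 for the fourth, was 0.131 after adjustment over the 4. On the first, with 16.2% of the variance, MIA_LPS 3, CON_LPS 3 and CON_LPS 7 stood at 1892, 1645 and 1016. All other LPS libraries had negative values there.

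Markers of the sorted cells were accessible in both groups. Of 8 microglial marker genes, 7, among them P2ry12, Tmem119, Cx3cr1, Csf1r, Sall1 and Siglech, had an interval with a peak in all 12 libraries inside the gene or within 20 kb, and 6 had one within 1 kb of a gene end. Gpr34 had 4 intervals, none of them in all 12. Markers of other myeloid cells were read as well, and so were those of neural, endothelial and lymphoid cells, which a gate on CD11b and P2ry12 is meant to remove. Intervals in all 12 libraries within 1 kb of a gene end were found at 0 of 10 border-associated macrophage genes, 1 of 10 monocyte and neutrophil genes, 1 of 12 neuronal, 0 of 8 astrocyte, 2 of 10 oligodendrocyte, 1 of 8 endothelial and 2 of 10 lymphocyte genes. By the wider measure, inside the gene or within 20 kb, the numbers of genes were 6, 5, 4, 5, 5, 5 and 7 in the same order, so that this measure does not set microglial genes apart from, for example, lymphocyte genes. No interval at all was assigned to Snap25, Gad2, Drd2, Aqp4, Olig1, Olig2, Cldn5, Ly6g or Cd8a. The mean rank over the intervals of the microglial markers was 32.8 to 37.7 in MIA_LPS libraries and 32.2 to 37.1 in CON_LPS libraries, and that of the lymphocyte genes was higher, 51.7 to 58.4 and 51.2 to 59.1. The mean rank over the intervals of the monocyte and neutrophil genes was 27.6 to 38.2 in MIA_LPS libraries and 27.2 to 39.8 in CON_LPS libraries, and that of the neuronal genes 31.99 to 45.6 and 35.6 to 46.9.

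Presence of peaks was then compared interval by interval. By two-sided Fisher's exact test, 0 of the 3678 intervals whose number of libraries could give a p of 0.01 or less were called at a Benjamini-Hochberg adjusted p under 0.05 (0% called), and the smallest adjusted p was 0.580. With the other filters and list lengths tried the count stayed at 0. In 6 intervals all 5 MIA_LPS and no CON_LPS library held a peak (0.163% of those tested), and in 2 intervals the reverse held (0.0544%). The unadjusted Fisher's exact p of such a complete separation is 0.00126, the smallest that 5 and 7 libraries can give. Over 3678 tests that p passes the adjustment only if many intervals separate at once, so no interval could be called by itself. The 0 thus does not show that no single site differed in presence.

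**Figure D2:**
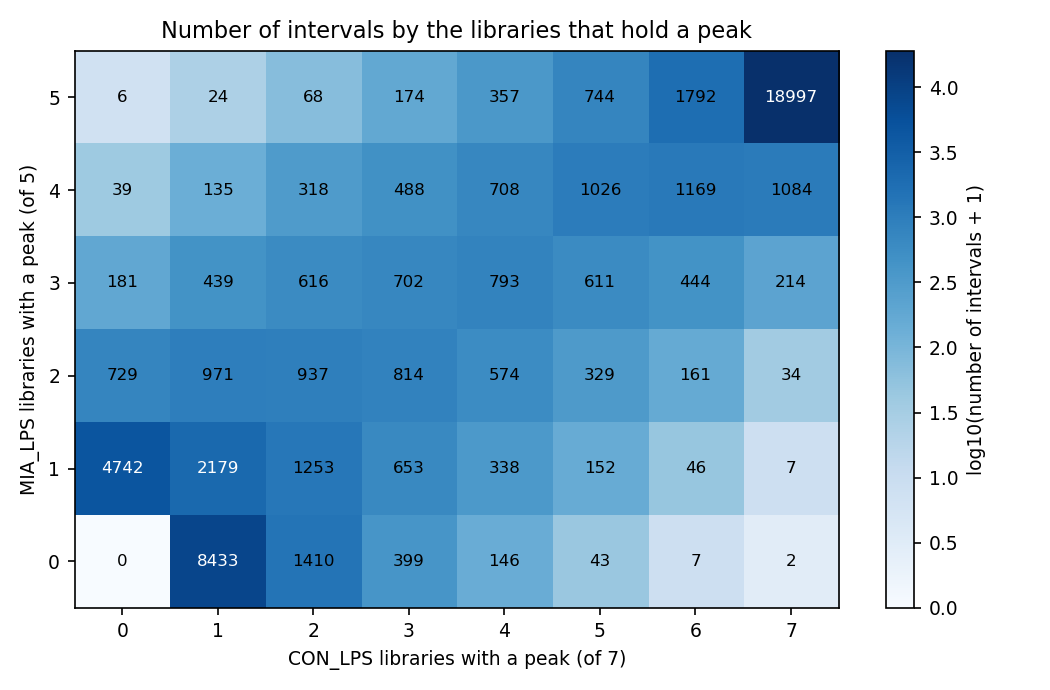
Number of merged intervals by how many of the 7 CON_LPS libraries (horizontal axis) and of the 5 MIA_LPS libraries (vertical axis) held a peak; the color is the log10 of the number plus 1. Most intervals lie along the diagonal or in the corner of all 12 libraries (18997), and the corners of complete separation hold 6 and 2 intervals.

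The strongest of the 6 MIA_LPS-only intervals covered 174 bp of the S100a6 promoter (chr3:90612715-90612888). S100a6 encodes a small calcium-binding protein. Its percentile ranks in MIA_LPS libraries 1 to 5 were 31.2, 43.2, 46.1, 29.03 and 14.7, with fold enrichments of 5.88, 7.05, 5.17, 5.37 and 7.04, and no CON_LPS list held a peak there. The peak was therefore in the weaker part of each list that had it. In saline libraries it was present in 4 of 6 MIA_SAL and 2 of 5 CON_SAL.

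An interval 6286 bp from Ccl3, which encodes a chemokine that draws monocytes and is induced by NF-kB (chr11:83641251-83641557), held peaks in all 5 MIA_LPS libraries at ranks of 26.6, 8.26, 34.9, 4.16 and 20.9. No CON_LPS library and no saline library of either group had a peak there. The same held for an interval in the body of another gene, 19187 bp from Capns2 (ranks 13.0 to 32.8), which encodes a small calpain subunit. It also held for intervals inside Myh10 (7.82 to 28.7), a nonmuscle myosin heavy chain, and inside Zfp148 (2.90 to 28.8), a zinc finger transcription factor. The sixth, 16751 bp from Cdhr3, a cadherin family member, had peaks in 5 of 6 MIA_SAL and 4 of 5 CON_SAL libraries as well. All 6 thus held weak peaks, and 4 of them were absent from saline libraries of both prenatal groups.

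In the opposite direction, an interval of 553 bp near Olfm5 (chr7:104169612-104170164) held a peak in all 7 CON_LPS libraries, with a lowest rank of 17.8, a median of 34.4 and a highest of 43.5, and in no MIA_LPS library. It was present in 6 of 6 MIA_SAL and 4 of 5 CON_SAL libraries, so that among all 4 groups the 5 MIA_LPS libraries were the ones without it, along with 1 CON_SAL library. The second such interval, on chromosome 7 with no coding gene end within 100 kb (chr7:75641741-75642070), had the same counts in saline libraries. Its ranks in CON_LPS libraries ran from 4.15 to 22.8. Cdkn2a, a gene of cell cycle inhibitors, has 2 promoter windows in RefSeq. At 1 of them, inside the gene and 7537 bp from its nearest end, 7 of 7 CON_LPS and 1 of 5 MIA_LPS libraries held a peak. In saline libraries a peak stood at this window in 6 of 6 MIA_SAL and 5 of 5 CON_SAL. The rank of the Cdkn2a peak in CON_LPS libraries was 3.28 at the lowest, 18.0 at the median and 48.2 at the highest. It was 7.34 in the MIA_LPS library that had the peak. The unadjusted Fisher's exact p was 0.0101, and the number of libraries with a peak there kept it out of the adjusted test.

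Unadjusted counts by presence were also taken. Of the 13995 intervals whose counts can reach an unadjusted Fisher's exact p of 0.05, 318 (2.27%) had such a p with more MIA_LPS libraries and 93 (0.665%) with more CON_LPS libraries. With 5 and 7 libraries the 2 directions do not reach this threshold alike. The 181 intervals with a peak in 3 MIA_LPS and 0 CON_LPS libraries pass it. The 399 and 146 with a peak in 3 and 4 CON_LPS and 0 MIA_LPS libraries do not. The 34 with a peak in 2 MIA_LPS and 7 CON_LPS libraries pass toward CON_LPS. Where both directions give the same p, 24 intervals had a peak in 5 MIA_LPS and 1 CON_LPS libraries, and 7 in 0 and 6. How far the unequal group sizes account for the 318 and 93 was not tested. The 318 were narrow, with a median width of 225 bp against 465 bp for all intervals in 3 or more libraries, and their best ranks had a median of 32.7 against 61.9. Of these 318, MIA_LPS 3 held 53.8% and the other 4 MIA_LPS libraries 74.8% to 84.9%, while CON_LPS libraries held 4.09% to 11.0%. In saline libraries, which did not enter their choice, MIA_SAL libraries held 29.2% ± 13.5 of them (SD, n = 6) and CON_SAL libraries 31.6% ± 9.68 (SD, n = 5). After saline 92 of the 318 had the larger share of libraries in MIA and 126 in CON, and all 37995 intervals in 3 or more LPS libraries divided in the same direction, 7567 and 8890. The split moved with the length of the lists, to 1890 against 7 with all deposited peaks and 102 against 71 with the best 17000, and leaving out 1 library gave 87 to 257 against 29 to 51. The fold enrichment of the MIA_LPS lists was the higher, as given above, and its part in these counts was not tested.

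How strongly peaks ranked was compared in the 18997 intervals with a peak in all 12 libraries. By limma on the rank of the −log10 p, 0 of 18997 were called (0% called, smallest adjusted p 0.999), and 402 (2.12%) had an unadjusted p under 0.05 with a higher and 423 (2.23%) with a lower rank in MIA_LPS, 4.34% in all. By limma on the rank of the fold enrichment, 0 were called (0%, smallest adjusted p 0.9999), with 359 (1.89%) and 396 (2.08%) at an unadjusted p under 0.05. The 2 groups' mean ranks differed by a median of 2.60 points, beside a median SD within groups of 7.36 points. The 95% interval of the difference reached 9.19 points to either side at the median, and in 78.8% of intervals it lay inside ± 20 points. These intervals are not corrected for the number of sites, and single differences above 20 points, such as that of 30.5 points inside Camk2d described below, did not pass the correction. The groups did not overlap in 19 intervals ranked higher in MIA_LPS (0.1%) and 13 ranked lower (0.0684%), 0.168% in all.

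**Figure D3:**
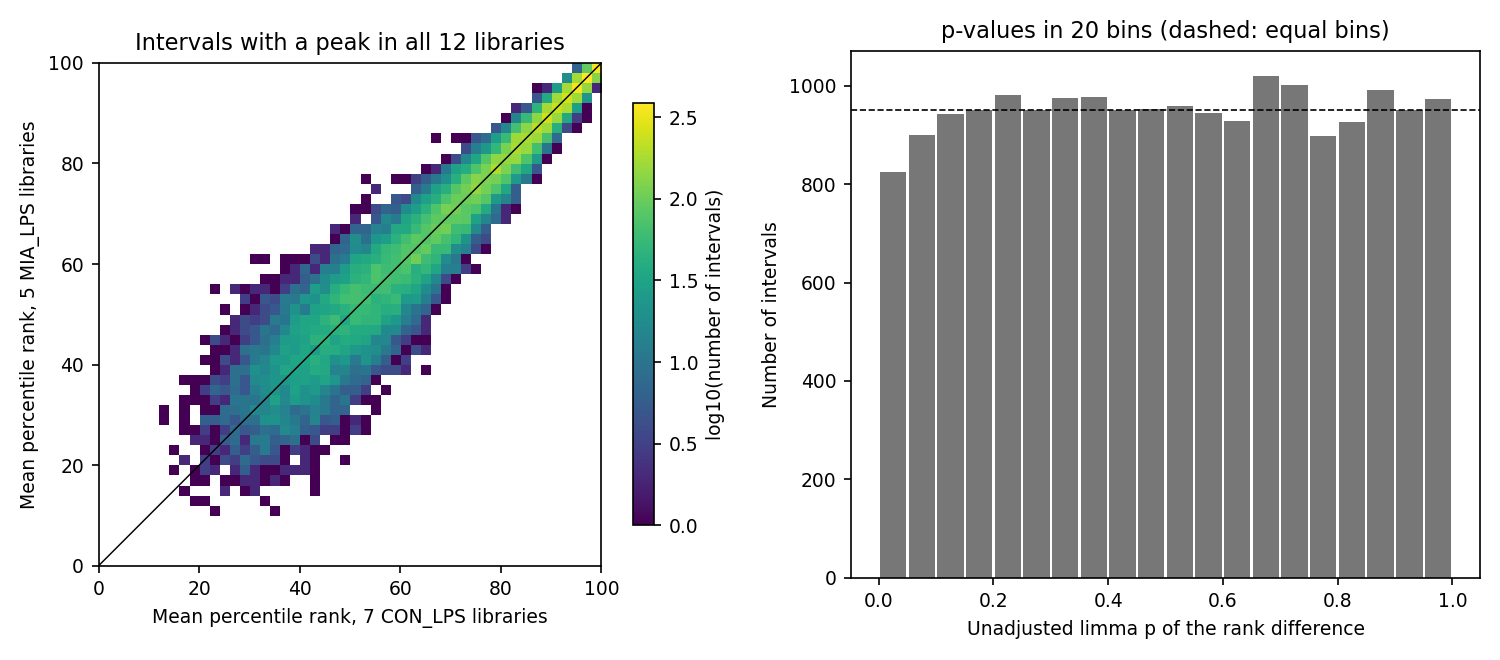
Left, mean percentile rank of each interval with a peak in all 12 libraries, for 7 CON_LPS libraries (horizontal) and 5 MIA_LPS libraries (vertical), with the color giving the log10 of the number of intervals and the line equality; right, number of intervals by unadjusted limma p in 20 bins. The cloud lies along the line of equality, and the lowest bin holds 825 intervals, below the mean over bins.

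By place in the genome, the unadjusted counts split as follows. Of 7905 intervals overlapping a RefSeq promoter window, 130 had an unadjusted limma p under 0.05 with a higher rank in MIA_LPS and 184 with a lower rank. These were 45 and 52 of 2234 at other gene ends, and 128 and 97 of 4961 in gene bodies away from gene ends. Between genes they were 99 and 90 of 3897. Over all 18997 they were 402 and 423, or 4.34% in all, and a difference between places was not tested. The median difference was -0.0797 points at 7905 promoters and 0.411 points at 4961 gene body intervals.

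Among the 10 intervals with the smallest p and a higher rank in MIA_LPS, the unadjusted limma p ran from 0.000361 to 0.00167 and the adjusted p was 0.999 for each. The first lay 19767 bp from Sema4b, a semaphorin gene (chr7:80166774-80167103). Its ranks were 90.3, 78.03, 87.7, 85.1 and 84.5 in the MIA_LPS libraries and 47.1 at the lowest, 69.7 at the median and 82.1 at the highest in CON_LPS libraries, a difference of 17.7 points (95% interval 8.52 to 26.8). The groups overlapped through the lowest MIA_LPS library. After saline its mean rank was 57.5 ± 11.3 in MIA_SAL and 63.1 ± 6.11 in CON_SAL libraries.

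An interval 4878 bp from Mefv (chr16:3723089-3723614), which encodes the inflammasome sensor pyrin, ranked 89.7, 68.5, 67.3, 80.3 and 76.5 in MIA_LPS libraries, and 30.9, 41.9 and 75.8 at the lowest, median and highest in CON_LPS libraries. The difference was 23.3 points (95% interval 9.59 to 37.1). In saline libraries a peak there was found in 1 of 6 MIA_SAL and 0 of 5 CON_SAL libraries. The CON_LPS libraries fell into 4 low and 3 high values, the latter within the MIA_LPS range.

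At the promoter of Mydgf, a growth factor gene named for its secretion by myeloid cells (chr17:56183395-56184097), the MIA_LPS ranks were 89.1, 96.5, 92.4, 95.7 and 97.7 and the CON_LPS ranks 79.4, 89.1 and 92.2 at the lowest, median and highest (difference 7.26 points, 95% interval 3.02 to 11.5). In saline libraries the mean rank was 90.7 ± 3.85 for MIA_SAL and 91.3 ± 3.28 for CON_SAL. The largest difference of the 10, 30.5 points (95% interval 12.7 to 48.3), was inside Camk2d, a calcium and calmodulin-dependent kinase gene, where CON_LPS ranks ran from 3.39 to 49.4 and MIA_LPS ranks from 35.6 to 72.9. The others included intervals inside Dnah2 (axonemal dynein) and Atxn1 (ataxin) and 1 lying 3255 bp from Gabrr2 (a GABA receptor subunit). Farther off were those 74067 bp from Rasgef1b (an exchange factor for Ras proteins) and 53476 bp from Gm51425. That named for Gm51425 overlapped the promoter window of BC002059. In 2 of the 10, at Atxn1 and Gabrr2, the groups did not overlap. The saline difference had the same sign in 4 of the 10.

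The 10 intervals with the smallest p and a lower rank in MIA_LPS had unadjusted limma p-values of 0.000563 to 0.00235, and 5 of them lay at gene ends. At the promoter of Heatr1, needed for the transcription of ribosomal RNA (chr13:12394821-12395874), MIA_LPS ranks were 92.0, 89.3, 94.0, 89.5 and 91.8, and CON_LPS ranks 93.6, 96.8 and 97.9 at the lowest, median and highest. The difference was -4.96 points (95% interval -7.63 to -2.29), with 1 MIA_LPS library inside the CON_LPS range. The saline groups ranked 91.6 ± 2.21 and 92.2 ± 4.13, nearer to the MIA_LPS values.

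At the promoter of Nt5dc3, a member of a nucleotidase family (chr10:86778254-86779370), the MIA_LPS ranks of 94.0, 92.2, 92.5, 92.5 and 93.8 lay below all CON_LPS ranks, which were 94.2, 97.5 and 98.7 at the lowest, median and highest. The difference was -3.85 points (95% interval -6.25 to -1.46). Rrp1, another gene of ribosomal RNA processing, had MIA_LPS ranks of 63.3 to 84.7 and CON_LPS ranks of 81.8 to 89.4 at its promoter (difference -10.0 points, 95% interval -16.2 to -3.87). The last 2 gene ends belonged to Nckap1, which encodes a subunit of the WAVE actin regulator (39.5 ± 9.94 against 64.1 ± 8.44), and Rbm25, a splicing factor gene (93.7 ± 2.81 against 97.6 ± 1.06).

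The Socs3 locus held a difference away from its promoter. SOCS3 inhibits cytokine signalling through STAT3 and is induced by it. The interval 16009 bp from the gene (chr11:117949381-117950070) ranked 20.5, 29.1, 11.8, 44.6 and 26.4 in MIA_LPS libraries and 44.4, 52.3 and 63.4 at the lowest, median and highest in CON_LPS libraries. The difference was -25.2 points (95% interval -40.7 to -9.70), and the groups touched through 1 library each. The adjusted limma p was 0.999. Saline libraries ranked 54.0 ± 7.59 in MIA_SAL and 49.3 ± 9.95 in CON_SAL, near the CON_LPS level. At the Socs3 promoter itself MIA_LPS ranks were 89.7, 87.5, 96.4, 90.7 and 84.1 beside 87.6, 90.5 and 95.5 in CON_LPS libraries (difference -0.49 points, 95% interval -4.48 to 3.51). The others of the 10 lay 9652 bp from Slc38a2 (a glutamine transporter), inside Camk1d (a calmodulin-dependent kinase) and inside Zfp217 (a zinc finger protein). A further site, on chromosome 17, had no coding gene end within 100 kb. In 9 of the 10 the saline difference had the same sign as that after LPS. Some of these 9 saline differences were close to none, and they ran from -6.91 points at Nckap1 to -0.0390 at Rrp1. At Nckap1 the SD was 19.7 in MIA_SAL and 11.8 in CON_SAL libraries.

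**Figure D4:**
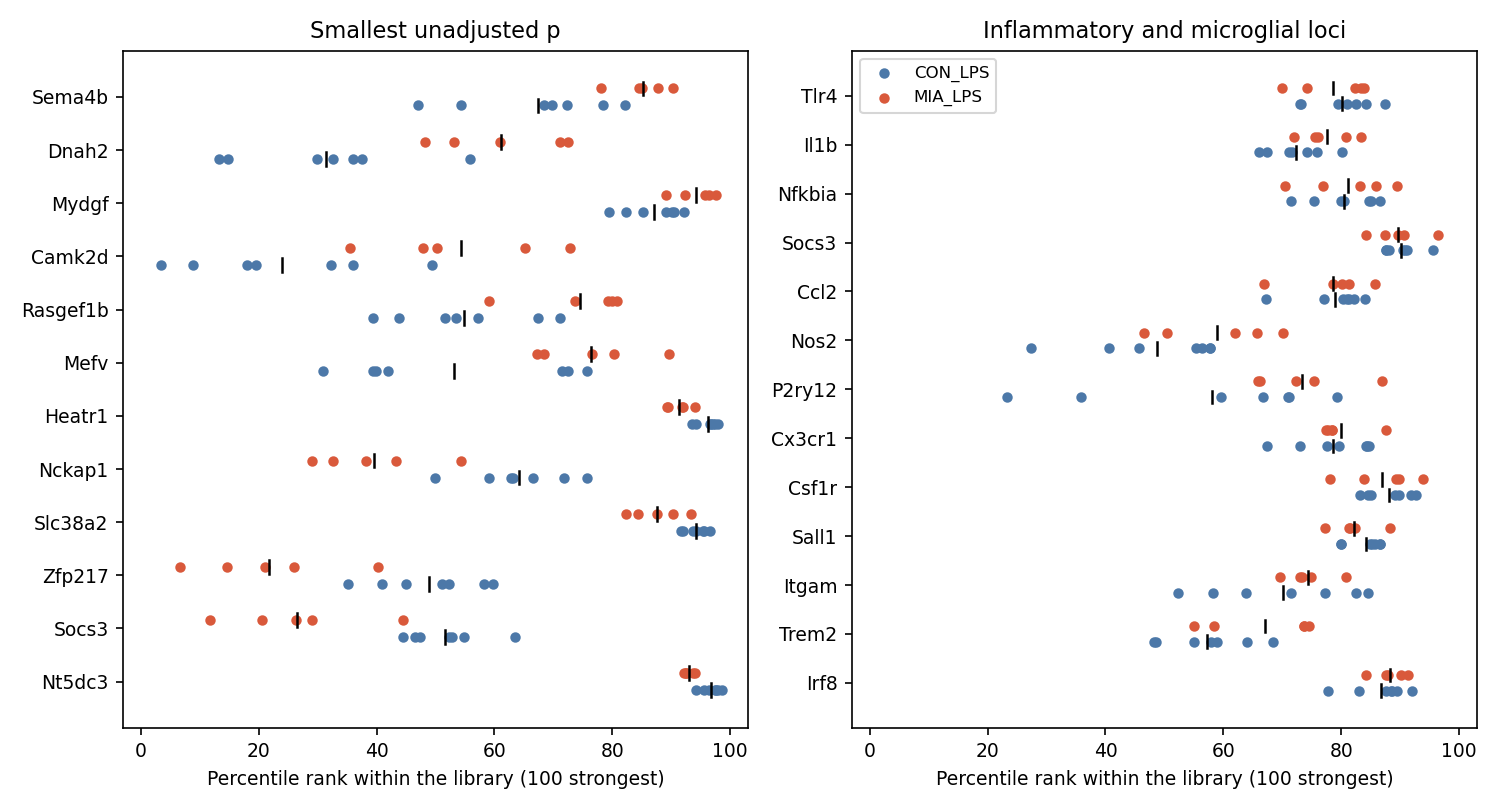
Percentile rank in each of 7 CON_LPS and 5 MIA_LPS libraries, with group means as bars, at intervals with the smallest unadjusted p (left) and at the best-ranked interval of inflammatory and microglial genes (right). On the left the groups touch or overlap at every interval shown but that of Nt5dc3, and on the right they overlap at every gene shown.

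The receptor, its adaptors and its targets were read at the best-ranked interval of 20 genes, whose means differed by -6.15 to 15.2 points. In 15 the difference was under 5 points, the groups overlapped in all 20, and 1, at P2ry12, had an unadjusted limma p under 0.05. At the Tlr4 gene end, MIA_LPS ranks were 82.3, 69.9, 83.8, 74.1 and 83.3, and CON_LPS ranks 72.9, 81.1 and 87.5 at the lowest, median and highest (difference -1.46 points, 95% interval -8.15 to 5.23). At the promoter of Nfkbia, the NF-kB inhibitor induced by NF-kB itself, the ranks were 85.9, 83.2, 89.5, 77.0 and 70.5 beside 71.4, 80.5 and 86.7 (difference 0.68 points, 95% interval -5.99 to 7.35). The interval 1922 bp from Il1b, the interleukin gene, differed by 5.22 points (95% interval -2.18 to 12.6) and that at Ccl2, a monocyte chemokine gene, by -0.45 points (95% interval -7.40 to 6.51). The other 2 Il1b intervals with a peak in all 12 libraries ranked lower in MIA_LPS, 1 of them by -16.4 points. At Tmem119, the differences of 5 such intervals ran from -17.95 to 4.34 points. The smallest unadjusted limma p was 0.0484 at Il1b and 0.0419 at Tmem119, and neither passed the correction. For 6 genes the best-ranked interval lay at another gene's end, namely Ndufa2 for Cd14, Oxsr1 for Myd88, Lta for Tnf, Iscu for Tmem119, Tomm40 for Apoe and Slc39a13 for Spi1, and its values say little of the gene it stands for.

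Nos2, the inducible nitric oxide synthase gene, had an interval 4087 bp away with a peak in all 12 LPS libraries and in no saline library. Its MIA_LPS ranks were 65.7, 50.5, 46.6, 62.0 and 70.1, and its CON_LPS ranks 27.4, 55.3 and 57.7 at the lowest, median and highest. The difference of 10.3 points had a 95% interval of -3.68 to 24.2. Of the microglial identity genes, the interval inside P2ry12, a purinergic receptor that was also used in the sort, ranked 66.2, 75.4, 87.0, 65.8 and 72.3 in MIA_LPS libraries and 23.3, 66.7 and 79.3 in CON_LPS libraries. The difference was 15.2 points (95% interval 0.81 to 29.7), with saline libraries at 74.6 ± 5.15 and 79.1 ± 3.76. The CON_LPS libraries covered the wider range, with 2 of them below all other LPS libraries. The other 3 P2ry12 intervals with a peak in all 12 libraries ranked lower in MIA_LPS, 1 of them by -5.23 points. Cx3cr1, Csf1r and Itgam differed by 1.26, -1.04 and 4.27 points.

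Gene lists by role were described by their counts. No interval of the 17 lists was called, and the median rank difference of a list lay between -1.68 points (lymphocyte genes, 11 intervals) and 3.14 points (monocyte and neutrophil genes, 11 intervals), beside 0.0126 over all 18997. The highest turned to -1.67 points without CON_LPS 1 and to -0.794 among replicates 1 to 5. Of 82 intervals at TLR4 signalling genes, 43 had the higher mean in MIA_LPS and 39 the lower. The smallest p among them was at the promoter of Tbk1, the kinase that activates interferon regulatory factors, where MIA_LPS ranks were 88.2, 82.1, 72.0, 86.6 and 80.4 and CON_LPS ranks 85.3, 87.8 and 92.8 (difference -6.49 points, 95% interval -11.7 to -1.32). At NF-kB and acute inflammatory genes, 44 of 101 intervals were higher and 57 lower (median -0.53 points). A peak was present in 80.4% ± 4.43 of the 211 intervals of these genes in MIA_LPS libraries and in 74.5% ± 4.44 in CON_LPS libraries. Over all 37995 intervals in 3 or more libraries the shares were 80.4% ± 5.07 and 78.2% ± 3.97. The difference of 5.84 points was not particular to this list. It was 7.69 at monocyte and neutrophil, 7.26 at astrocyte and 5.63 at complement and phagocytosis genes. At neuronal and lymphocyte genes it was -4.51 and -1.57.

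Interferon-stimulated genes had 25 of 43 intervals higher in MIA_LPS (median 0.46 points). The interval with the smallest p was 16201 bp from Irf1, a transcription factor gene of the interferon response, at 49.2 ± 8.46 in MIA_LPS and 63.8 ± 9.78 in CON_LPS libraries (difference -14.6 points, 95% interval -27.1 to -2.24). Homeostatic microglia genes had 36 of 75 higher (median -0.56), and inside Mertk, a receptor for apoptotic cells, a peak stood in 5 of 5 MIA_LPS and 1 of 7 CON_LPS libraries (unadjusted Fisher's exact p = 0.0152). Myeloid transcription factor genes had 48 of 110 higher (median -0.71). Among them an interval inside Fli1, an ETS factor, ranked 12.2 points higher in MIA_LPS (95% interval 3.31 to 21.1), and one inside Bach2, a transcriptional repressor, held a peak in 0 of 5 MIA_LPS and 6 of 7 CON_LPS libraries and in no saline library (unadjusted Fisher's exact p = 0.0152).

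Antigen presentation genes had 28 of 43 intervals higher in MIA_LPS (median 1.14 points). The gene end of Cd40, a costimulatory receptor induced on microglia by LPS (chr2:165055057-165055951), ranked 77.4, 61.5, 59.0, 65.8 and 55.3 in MIA_LPS libraries and 26.6, 43.7 and 59.97 at the lowest, median and highest in CON_LPS libraries. The difference was 20.2 points (95% interval 6.42 to 33.9), and saline libraries ranked 20.1 ± 15.3 and 23.7 ± 9.88. Disease-associated microglia genes had 21 of 46 higher (median -0.60), with the promoter of Cd9, a tetraspanin, at 49.4 ± 8.61 against 65.4 ± 12.6. Complement and phagocytosis genes had 31 of 68 higher (median -0.87), with an interval 4442 bp from Sirpa, the receptor of the CD47 signal, at 85.0 ± 5.95 against 91.1 ± 1.98. Glycolysis and hypoxia genes had 41 of 68 higher (median 0.74), with an interval inside the glucose transporter gene Slc2a1 at 67.6 ± 8.81 against 54.0 ± 6.30. Housekeeping genes divided into 15 higher and 15 lower. None of the intervals of these lists described by rank had an adjusted limma p below 0.999. Those inside Mertk and Bach2 were outside the adjusted Fisher's exact test, since their number of libraries with a peak could not give a p of 0.01 or less.

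Intervals seen with LPS alone had the higher mean rank in MIA_LPS more often than the lower. There were 246 with a peak in all 12 LPS and in none of the 11 saline libraries, among them those near Nos2, Ets2, Csf1 and Lpl, inside Srgap2 next to Ikbke, and at the promoter of Cd80. These 6 did not move together, with differences of 10.3 points near Nos2, 8.08 near Ets2, -1.01 near Lpl, -5.60 near Csf1, -9.22 next to Ikbke and -11.1 at Cd80. Of the 246, 160 had the higher mean rank in MIA_LPS and 86 the lower (65.0% higher, beside 50.1% of all 18997). The median difference was 2.83 points, and 16 against 3 had an unadjusted limma p under 0.05. The 246 are unlike the 18997, with mean ranks of 46.7 in MIA_LPS and 43.9 in CON_LPS against 68.8 and 68.7. Only 5.69% of them lay at gene ends. A comparison with intervals of like rank and place was not made. The mean rank over the 246 was 51.7, 43.4, 44.7, 44.5 and 49.4 in MIA_LPS libraries 1 to 5, and 40.9 at the lowest, 43.8 at the median and 46.2 at the highest in CON_LPS libraries. Libraries 1 and 5 of MIA_LPS lay above the CON_LPS range and the other 3 within it. The median difference was 1.80 points without MIA_LPS 1 and 1.70 points without CON_LPS 7, and it was 1.36 points with the median fold of each library as a covariate and 1.35 points among libraries of under 20000 sorted cells. The counts of 16 against 3 became 9 against 10 with that covariate and 3 against 2 among the libraries of under 20000 cells.

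**Figure D5:**
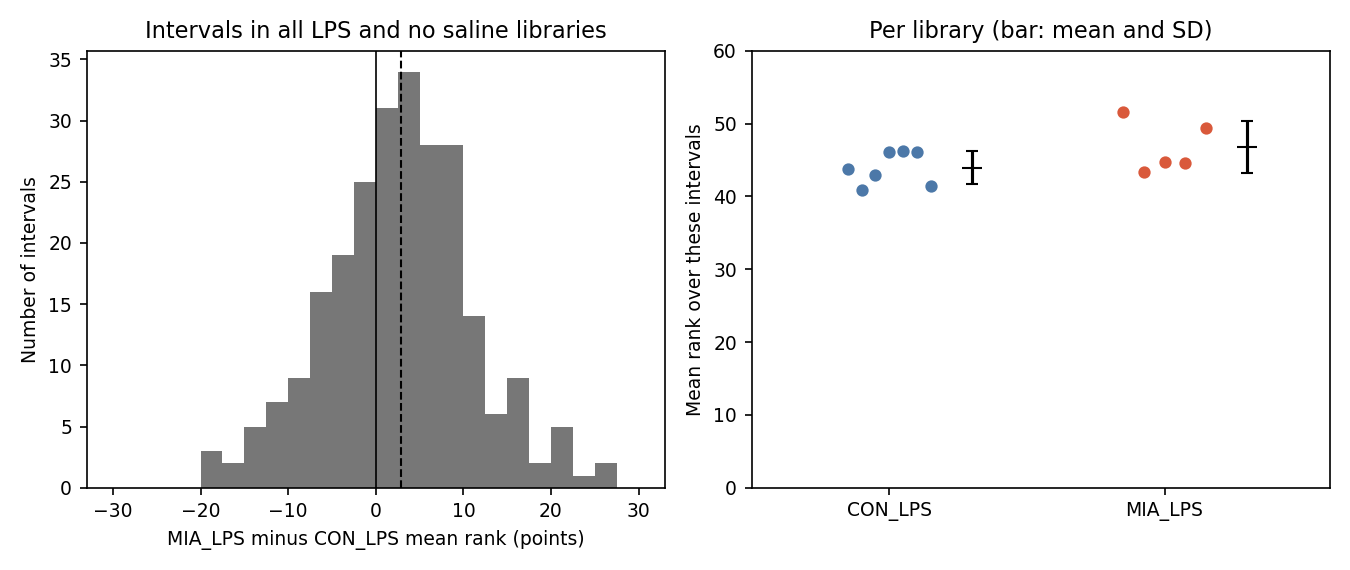
Left, difference in mean percentile rank between MIA_LPS and CON_LPS for the 246 intervals with a peak in all LPS and no saline libraries, with the median of 2.83 points dashed; right, mean rank over these intervals by library, with mean and SD. The differences center slightly above 0, and 2 of the 5 MIA_LPS libraries lie above all 7 CON_LPS libraries.

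Whether the prenatal difference after LPS departed from that after saline was tested in 15962 intervals with a peak in all 23 libraries. This choice leaves out sites without a peak in some library, such as those seen with LPS alone. The fit thus covers rank only and cannot show altered gain or loss of peaks with LPS. The limma interaction term called 0 (0% called, smallest adjusted p 0.9999), with 324 above and 346 below 0 at an unadjusted p under 0.05. In the same intervals MIA_SAL against CON_SAL also gave 0 calls (0%, smallest adjusted p 0.870), with 490 higher and 418 lower at an unadjusted p under 0.05. The uncorrected 95% interval of the interaction reached 10.9 points to either side at the median. The first number of the identity labels is shared by LPS and saline libraries of the same prenatal group for 5 numbers (2, 3, 11, 14 and 15). The labels do not say what it marks, and the fit took the 23 libraries as independent.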

How the data were processed

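ATAC-seq peak lists of 12 libraries (5 MIA_LPS, 7 CON_LPS) were analysed, with 11 saline libraries as background. The tools named in the submitters' processing notes are MACS2, Bowtie2, cutadapt, SAMtools, Picard and DiffBind, and the builds mm10 and GRCm38; for versions and settings the sources used here give nothing. The deposited lists, 1 per library and without a header, were read from their values as the authors' fold enrichment (a ratio), −log10 p and −log10 q of each peak and the summit's offset. Both fold and −log10 p are the authors' and were used to order the peaks of each list.

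Peaks on chromosomes 1 to 19 and X were kept, lists were shortened to the 33900 best by −log10 p, and overlapping peaks of the 12 libraries were merged. Presence was tested with Fisher's exact test, and ranks with limma 3.58.1 (R 4.3.3, trend and robust), each Benjamini-Hochberg adjusted over all intervals tested, with calls at an adjusted p under 0.05. Library measures were compared by exact permutation, two-sided p being double the smaller tail. The scripts were tested on simulated data. Named are the 10 intervals with the smallest p in each direction (5 for fold), the interval with the smallest p of each list by either test, and the best-ranked interval of 20 fixed genes; a few items named by this rule are not reported here. An interval takes the name of the nearest coding gene end, if within 100 kb, or of a list gene within 20 kb; neither shows that it acts on that gene. The comparison, the 17 gene lists and the rule were chosen with earlier results of these data known. Depth in reads is unknown.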

Additional observations from a re-analysis of the deposited data

Results flagged for a closer look

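In 5 of 130 groups of libraries checked, 1 library stood apart by Dixon's ratio at the 95% level, which chance gives in about 1 group in 20. The library MIA_LPS 3 shared 65.5% of its peaks with the other LPS libraries on average, below the other 4 MIA_LPS libraries. It was not alone among the LPS libraries, since CON_LPS 3 shared 65.0% and CON_LPS 7 shared 67.1%. The rank of MIA_LPS 3 at Cx3cr1, the fractalkine receptor gene, was 87.6, above the other MIA_LPS libraries at 77.5 to 78.5. At the interval near Irf1, CON_LPS 7 ranked 44.4, below the other CON_LPS libraries. At Ccl2, CON_LPS 4 ranked 67.2 and stood below its group. At Ptprc, which encodes CD45, CON_LPS 3 ranked 84.2 and stood above its group.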

How the results depend on the processing

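The counts of 0 called intervals were the same under all 82 alternatives to the tests of presence and rank, 36 of which left out 1 library, with smallest adjusted p-values between 0.308 and 1 for presence, 0.170 and 1 for the rank of −log10 p and 0.147 and 1 for the rank of fold. Libraries of under 20000, or of 20000 or more, sorted cells alone could not be tested by Fisher's exact test, whose smallest p was then 0.0667 and 0.1. In the other settings Fisher's exact test could call an interval only if many separated together, so its counts of 0 say little of single sites. With 1 library left out, the differences between the groups ran from 5308 peaks without MIA_LPS 5 to 13230 without MIA_LPS 3. They ran from 0.687 to 1.90 in median fold and from 3.98 to 12.02 in median −log10 p. The upper values, all without MIA_LPS 3, passed the threshold. With CON_LPS 3 and CON_LPS 7 left out as well, none did (adjusted exact permutation p 0.0635 each). The difference in median peak width turned to -6.50 bp under 20000 cells and -0.286 bp with all deposited peaks, and that in shared peaks to -1.21 points with all deposited peaks; that in peaks met by no saline library turned to -0.0330 points under 20000 cells and, with 1 library left out, ran from -0.0454 without MIA_LPS 3 to 0.989. The difference in saline intervals lost turned to 0.177 points under 20000 cells, 0.0576 with the best 17000 peaks and 0.131 with the replicate block, and leaving out 1 library gave -0.419 to 0.180. Median list differences moved by more than the spread of the libraries for NF-kB genes (-2.53 points with 20000 or more cells), homeostatic genes (1.86 under 20000 cells), oligodendrocyte genes (-2.37 with median fold as covariate), endothelial genes (-1.47 without identity numbers 1 to 3, and up to 4.48 without CON_LPS 4, from -1.102 without CON_LPS 7) and monocyte and neutrophil genes (-0.794 in replicates 1 to 5 with and without the replicate block, and from -1.67 without CON_LPS 1 to 3.54 without CON_LPS 5). The cause was not tested. Replicate numbers did not pair the libraries: same-numbered deviations correlated at -0.0937 to 0.161, 2 of 5 MIA_LPS libraries correlated best with their own number, and the replicate block gave 0 calls in each test.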

Other observations

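An interval of a gene outside the account above differed in presence and is given as a value that did not pass a correction. It lay inside Nfatc2, a calcium-regulated transcription factor gene, and held a peak in 1 of 5 MIA_LPS and 7 of 7 CON_LPS libraries, with CON_LPS ranks of 14.0, 40.5 and 49.4 at the lowest, median and highest. In saline libraries it was present in 1 of 6 MIA_SAL and 1 of 5 CON_SAL. Its unadjusted Fisher's exact p was 0.0101.

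At genes of other cell types, an interval inside Cdh5, the endothelial cadherin gene, ranked 78.9 ± 5.57 in MIA_LPS and 65.3 ± 8.43 in CON_LPS libraries, with saline libraries at 78.9 ± 6.43 and 78.8 ± 11.0. An interval inside Mmp9, a gelatinase gene of neutrophils and activated macrophages, ranked 53.1 ± 8.23 against 66.7 ± 6.90, with saline libraries at 33.5 ± 22.1 and 33.7 ± 9.25. Their adjusted limma p was 0.999. The CON_LPS libraries 1 and 6, whose identity labels begin with the same number, shared 72.3% of their peaks, within the range of 65.0% to 75.4% over CON_LPS pairs.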
